A study of Mus musculus with 289 samples.

Results

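Astrocytes make most of the cholesterol of the adult brain, and the genes described here encode the enzymes and regulators of cholesterol and fatty acid synthesis. The members were taken by name: 33 listed genes were looked up by their Ensembl identifiers in the count tables of 5 batches. All 33 were found in every table, among 55487 gene rows in any table and 18523 gene rows present in all 5. They comprise 18 enzymes of the sterol steps, 6 regulators and carriers, and 9 enzymes that make, desaturate or elongate fatty acids.

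The study drew single astrocytes from the cortex of adult Cas9 transgenic mice with a pipette and made a Smart-seq2 library of each. The mice had received a lentivirus (Mok-LV) built for astrocytes that carried guide RNAs (gRNAs) against the transcription factors Sox9 or Trps1, against both (here dual gRNA), or a control gRNA. Cells labelled as having no gRNA and in-slice controls, nearly all labelled as holding no cell, were also sequenced. The cells without a gRNA carry the label Adult in place of a day, and the labels do not say whether their animals had received a virus, so in comparisons with them the gRNA, the virus and the injection cannot be told apart. All groups share the Cas9 background as far as the labels say, and the promoter of the virus, the Cas9 allele, the strain and the exact age are not given in the sources used here. In batch 5, Sox9 gRNA of day 21 (21 cells) and Trps1 gRNA of day 21 (30 cells) were set against 23 cells without a gRNA. At day 21 in batch 4, Sox9 gRNA (16 cells) and dual gRNA (13 cells) were set against control gRNA (15 cells), and a further 15 cells with Trps1 gRNA date from day 7 and have no partner of their own day. In batch 3, Sox9 gRNA of day 7 (21 cells) and dual gRNA of day 7 (14 cells) were set against 6 cells without a gRNA. At day 21 in batch 2, dual gRNA (8 cells) was set against control gRNA (7 cells), and 8 cells with control gRNA date from day 7. Batch 1 held 4 dual gRNA cells and 10 control gRNA cells, with 31 no gRNA cells. The day labels of batch 1 run on from cell to cell and were not used.

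Cholesterol synthesis condenses acetyl-CoA into mevalonate, builds squalene from isoprene units, closes squalene into lanosterol and trims lanosterol to cholesterol. SREBP transcription factors switch these genes on when sterols in the endoplasmic reticulum are low: Scap escorts the SREBP precursor to the Golgi, and the Insig proteins hold it back when sterols are high. In the adult brain, neurons take up much of the cholesterol that astrocytes make, and astrocyte SREBP activity also feeds the synthesis of unsaturated fatty acids.

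Each gRNA group of a batch and day was treated as 1 pool, because the labels name no animal and cells of unknown animals are not replicates. The level of a gene in a pool is its share of the pool's reads in genes, scaled as CPM, and a log2 ratio is that of CPM + 5 in the first-named pool over the second. A member counts as measured at 5 CPM or more in the higher pool, and as higher or lower where the ratio reaches 2-fold. No p-value or standard error can be given, and each difference describes these libraries. Intervals are at 95%, exact Poisson for CPM and Clopper-Pearson for shares of cells, and cover counting error only, since Smart-seq2 reads carry no molecular identifiers. Folds given as at least, for pools with no read, likewise cover counting error only.

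The 242 astrocytes held 15959 to 4656612 reads in genes (median 1094502), and the 6 no gRNA cells of batch 3 stood apart with a median of 236508 reads, 3 of them under 100000. The 10 astrocyte markers all had reads in every pool of cells, and their summed level was lowest in the dual gRNA pool of batch 4, at 1712 CPM. Microglia and macrophage markers were also read in every pool, with 5 of 8 read in the no gRNA cells of batch 3 (C1qb, C1qc and Cx3cr1 at 0) and 8 of 8 elsewhere. Their summed level was 4340 to 10293 CPM in the pools that had received a gRNA and 207 to 276 CPM in the no gRNA pools. Sox9 reads were not lower in every pool with a Sox9 gRNA: 233 CPM in Sox9 gRNA cells and 309 CPM in no gRNA cells of batch 5, and 189 CPM in Sox9 gRNA and 133 CPM in dual gRNA cells of batch 4, where control gRNA cells had 177 CPM. In batch 3 Sox9 had 1303 CPM in Sox9 gRNA and 1492 CPM in dual gRNA cells, against 382 CPM in no gRNA cells. With dual gRNA it had 905 CPM in batch 2 and 1860 CPM in batch 1, against 491 and 209 CPM with control gRNA there. Nor were Trps1 reads lower in every pool with a Trps1 gRNA: 57.6 CPM in Trps1 gRNA cells and 91.9 CPM in no gRNA cells of batch 5, and 294 CPM in dual gRNA cells and 109 CPM in no gRNA cells of batch 3. With dual gRNA Trps1 had 16.7 CPM in batch 4, 19.4 CPM in batch 2 and 112 CPM in batch 1, against 3.35, 107 and 4.61 CPM with control gRNA there; the no gRNA cells of batch 1 had 524 CPM of Sox9 and 96.1 CPM of Trps1. A small deletion need not remove reads and the cut sites are not given, so read levels do not check the edit, and pools are named as labelled. In-slice controls gave the background: the members summed to 872 CPM over 5 such libraries in batch 5, 417 CPM over 4 in batch 3 and 162 CPM over 2 in batch 4. The single in-slice library of batch 2 held 913 CPM, of which 882 CPM were Ebp.

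Levels per length of exon gave a rough order of the members in cells with no gRNA. The length joins all annotated exons of a gene and is not that of 1 transcript, so a long union, such as the 17074 bases of Acaca, lowers the value. In batch 5 the highest was Scd2, the main brain isoform of stearoyl-CoA desaturase, at 100.5 CPM per kb, followed by the elongase Elovl5 at 84.9 and the sterol demethylating enzyme Msmo1 at 77.5. Insig1, a brake on SREBP, had 73.7 CPM per kb, the desaturase Fads2 had 72.5, and Dhcr7, the reductase that finishes cholesterol, had 68.2. In batch 1 the order of the no gRNA pool differed, with the mevalonate pathway enzyme Mvd first at 74.8 CPM per kb, Fads2 at 66.7, Scd2 at 65.0 and Pmvk, a kinase of mevalonate phosphate, at 59.0. Dhcr7 had 38.3 CPM per kb and Msmo1 45.4 in that pool. The steps were therefore unevenly read: several desaturases were high in both pools, while the carboxylase Acaca stood at 0.269 and 1.2 CPM per kb in the no gRNA pools of batches 5 and 1.

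**Figure D1:**
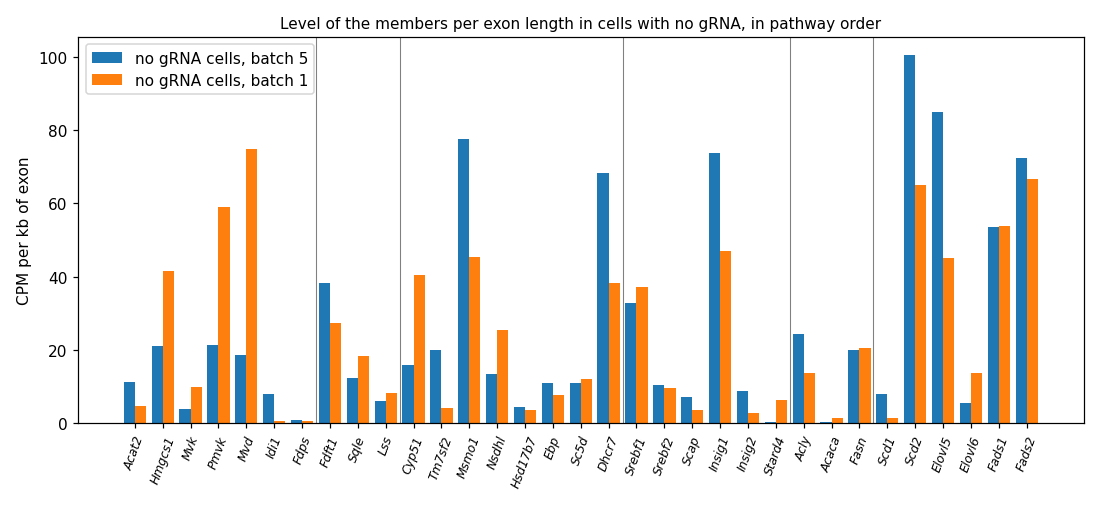
Level of the 33 members in cells with no gRNA, in CPM per kb of exon (y axis), in pathway order (x axis), with 1 bar for the pool of batch 5 and 1 for the pool of batch 1; thin lines divide the steps. Scd2 and Fads2 were above 60 CPM per kb in both pools, and Fdps and Acaca were close to 0 in both.

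Some members cannot be read cleanly. Fdps (chr3:89093588-89101959, GRCm38, minus strand), which makes farnesyl diphosphate, shares 26.7% of its exon bases with Gm43738 on the same strand and reached 5 CPM in 1 of the 8 comparisons, so its low level is uncertain. Fdft1, which makes squalene (chr14:63145150-63179578, minus strand), shares 18.3% of its exon bases with the protease gene Ctsb on the opposite strand, and reads of the 2 genes cannot be told apart where they overlap, since how strand was treated is not given. Ctsb had more CPM in the first-named pool in all 8 comparisons, whichever way Fdft1 went: 1497 CPM in Sox9 gRNA cells and 643 CPM in no gRNA cells of batch 5, for example, and 3346 CPM in dual gRNA cells and 1348 CPM in control gRNA cells of batch 2. Tm7sf2, a sterol reductase, shares 12.1% with Vps51 on the same strand. Dhcr7 (chr7:143823145-143848410, plus strand), Msmo1 (chr8:64718139-64733792, minus strand) and Insig1 (chr5:28071363-28078662, plus strand) share no exon base with another gene of the annotation.

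Promoters were compared because SREBPs act at the promoters of these genes, through a sterol regulatory element beside a CCAAT box bound by NF-Y. RefSeq promoters (GRCm38.p6, 250 bases before and 50 after the start) were held for 26 of the 33 members. The letters TCACNCCAC, searched on both strands, were found for 1 of the 26 members with a promoter (3.85%), which was Hmgcs1, and for 1.44% of all 27025 genes with a promoter. CCAAT, also on both strands, was found for 21 of 26 members (80.8%) and for 41.1% of all genes. A match describes the letters alone. Shown are the 150 bases before the start of Hmgcs1, the only member with the sterol motif, and of Msmo1, Fasn and Idi1, which were lower in the dual gRNA pool of batch 4 and carry the CCAAT letters there. Dhcr7 is shown as the member with the largest differences in batches 5 and 1, and the stretch before the first of its 3 starts in the table holds neither motif, while the promoter of its last start (chr7:143829964-143830263) has 2 CCAAT matches. Capitals mark both motifs, with ATTGG being CCAAT on the other strand; the stretches are chr13:119690201-119690350 (plus strand), chr8:64733579-64733728 (minus), chr11:120824548-120824697 (minus), chr13:8885456-8885605 (plus) and chr7:143823017-143823166 (plus).
Hmgcs1: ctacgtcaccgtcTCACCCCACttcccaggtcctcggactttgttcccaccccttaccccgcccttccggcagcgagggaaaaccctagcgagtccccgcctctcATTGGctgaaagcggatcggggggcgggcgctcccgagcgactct
Msmo1: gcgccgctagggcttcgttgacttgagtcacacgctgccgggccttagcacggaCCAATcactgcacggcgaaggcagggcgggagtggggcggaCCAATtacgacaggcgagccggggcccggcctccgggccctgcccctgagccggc
Fasn: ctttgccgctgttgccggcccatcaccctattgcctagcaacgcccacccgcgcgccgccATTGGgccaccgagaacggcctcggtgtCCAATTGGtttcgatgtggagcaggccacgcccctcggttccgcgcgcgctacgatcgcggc
Idi1: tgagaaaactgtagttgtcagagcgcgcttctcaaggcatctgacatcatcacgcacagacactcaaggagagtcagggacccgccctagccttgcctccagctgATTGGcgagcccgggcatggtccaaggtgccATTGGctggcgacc
Dhcr7: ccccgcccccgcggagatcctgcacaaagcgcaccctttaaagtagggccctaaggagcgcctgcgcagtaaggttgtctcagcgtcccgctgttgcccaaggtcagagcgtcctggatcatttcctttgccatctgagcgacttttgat

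In batch 5, 4 of the 8 late sterol enzymes and 2 of the SREBP regulators were lower in Sox9 gRNA cells of day 21 than in no gRNA cells, and the largest difference was at Dhcr7. Of 31 members measured, 8 were lower, against 20.5% of all 12287 genes at the same minimum, and 1 was higher, against 24.3% of all genes. The share of members that were lower, 25.8%, was thus near that of all genes, while the share that were higher, 3.23%, was below it. The members' median log2 ratio was -0.55 and that of all genes 0.07. The count of members higher was 0 without each gene's highest cell, 3 with 1 CPM added in place of 5, and 8 or 2 against the no gRNA cells of title series AG or 2AG alone; the count lower was 13 against series AG alone. Microglia markers summed to 8171 CPM in Sox9 gRNA cells (4.73 to 36479 CPM per cell) and 207 CPM in no gRNA cells (0 to 968), with 8 of 8 read in both. Oligodendrocyte markers, also 8 of 8 read in both, summed to 4366 CPM in Sox9 gRNA cells (25.9 to 51004) and 2328 CPM in no gRNA cells (2.41 to 8914). Their part in the result was not tested.

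Dhcr7 had 34.0 CPM (31.3 to 36.9) in Sox9 gRNA cells, with reads in 7 of 21 cells, against 397 CPM (388 to 406) in no gRNA cells, with reads in 18 of 23. Per cell the lowest, median and highest values were 0, 0 and 356 CPM in Sox9 gRNA cells, against 0, 353 and 870.4 CPM in no gRNA cells. The log2 ratio was -3.36, and -4.16 without the highest cell of each pool. Most Sox9 gRNA cells had no Dhcr7 read while most no gRNA cells had reads, yet the groups overlapped at 0. After thinning each cell to 200000 reads, 6 of 21 Sox9 gRNA cells and 17 of 22 no gRNA cells had a read. The 11 cells of title series AG and the 12 of 2AG had 419 and 379 CPM, so both series of no gRNA cells were high.

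Upstream of Dhcr7, Msmo1 had 188 CPM in Sox9 gRNA cells, with reads in 14 of 21, against 476 CPM in no gRNA cells, with reads in 22 of 23 (log2 ratio -1.32). Tm7sf2 had 27.5 CPM with reads in 6 of 21 Sox9 gRNA cells, against 87.3 CPM with reads in 12 of 23 no gRNA cells (-1.50). Nsdhl, which removes a carboxyl group from the sterol, had 15.2 CPM with reads in 4 of 21 Sox9 gRNA cells, against 38.3 CPM with reads in 5 of 23 no gRNA cells (-1.10). The other 4 late enzymes stayed within 2-fold. Cyp51, the lanosterol demethylase, had 59.9 CPM in Sox9 gRNA cells and 69.1 CPM in no gRNA cells, and the desaturase Sc5d had 69.8 and 53 CPM in those groups. The 8 genes from lanosterol to cholesterol together summed to 451 CPM in Sox9 gRNA cells and 1168 CPM in no gRNA cells.

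The early enzymes differed less between the pools. The 7 genes from acetyl-CoA to farnesyl diphosphate summed to 278 CPM in Sox9 gRNA cells and 237 CPM in no gRNA cells, and Hmgcs1, the synthase that commits acetyl-CoA to mevalonate, had 115 and 96.1 CPM in those groups. Mvk, mevalonate kinase, was the member counted as higher, at 35.1 CPM with reads in 3 of 21 Sox9 gRNA cells, against 10.1 CPM with reads in 2 of 23 no gRNA cells. Its ratio of 1.41 was 0.38 without the highest cells and 0.77 against title series 2AG alone. Pmvk was lower, at 14.2 CPM with reads in 3 of 21 Sox9 gRNA cells, against 36.6 CPM with reads in 8 of 23 no gRNA cells (-1.11). The no gRNA series differed for this gene, with 64.9 CPM in 2AG and 2.26 CPM from 1 of 11 cells in AG, and the ratio against AG alone was 1.41, on the other side. Fdft1 had 82.4 CPM in Sox9 gRNA cells and 162 CPM in no gRNA cells, short of 2-fold.

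Among the regulators, Insig1 had 56.0 CPM with reads in 13 of 21 Sox9 gRNA cells, against 228 CPM with reads in 20 of 23 no gRNA cells (-1.94). Srebf1, which encodes the SREBP that favours fatty acid genes, had 56.4 CPM with reads in 8 of 21 Sox9 gRNA cells, against 184 CPM with reads in 17 of 23 no gRNA cells (-1.62). Srebf2, whose product favours the sterol genes, did not share this: it had 137 CPM in Sox9 gRNA cells and 74.2 CPM in no gRNA cells, under 2-fold. Of the fatty acid genes, Scd1, a stearoyl-CoA desaturase, had 1.58 CPM with reads in 1 of 21 Sox9 gRNA cells, against 38.2 CPM with reads in 13 of 23 no gRNA cells (-2.71). Its paralog Scd2 had 273 CPM in Sox9 gRNA cells and 549 CPM in no gRNA cells (-1.0 after rounding, just short of 2-fold). Fasn, the fatty acid synthase, had 170.2 CPM in Sox9 gRNA cells and 217 CPM in no gRNA cells.

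**Figure D2:**
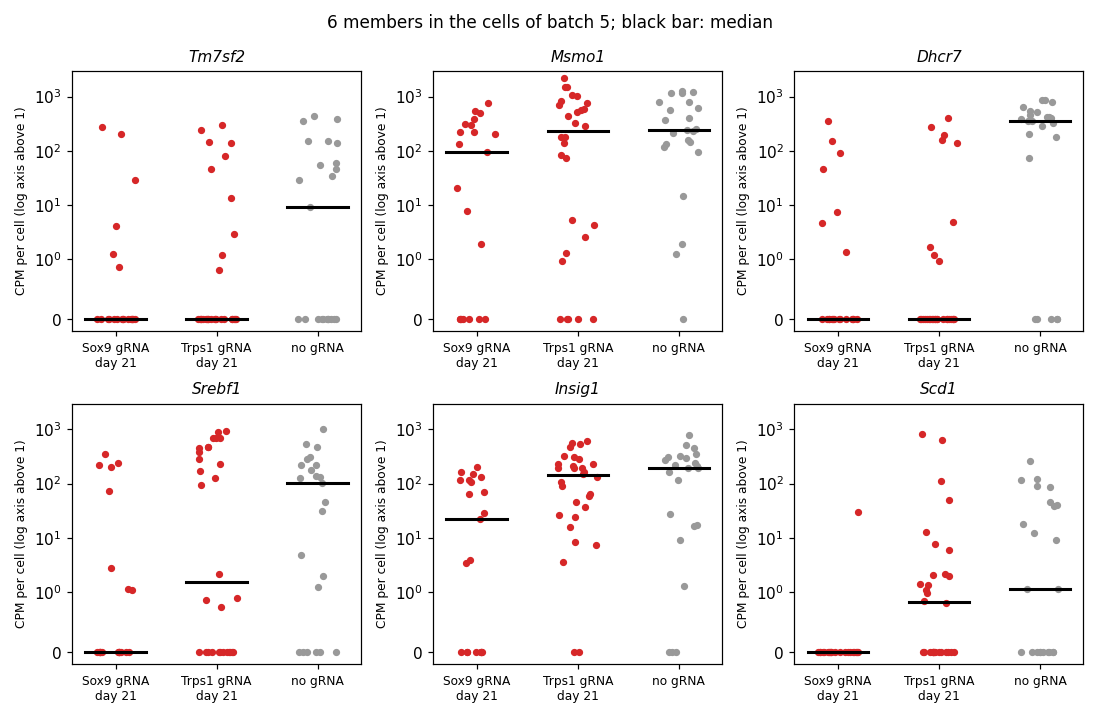
CPM per cell (y axis, logarithmic above 1 and linear to 0) of 6 members in the Sox9 gRNA, Trps1 gRNA and no gRNA cells of batch 5 (x axis); each point is a cell and the black bar the median. The median of Dhcr7 was 0 in both gRNA groups and 353 CPM in no gRNA cells, and Scd1 had reads in 1 of 21 Sox9 gRNA cells.

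Trps1 gRNA cells of the same batch, set against the same 23 no gRNA cells, also had little Dhcr7, while the members as a whole lay near the rest of the genes. Of 32 members measured, 8 were higher, against 30.3% of all genes, and 5 were lower, against 14.3% of all genes. These shares, 25% and 15.6% of the members, were near those of all genes. The median log2 ratio was 0.14 for the members and 0.41 for all genes, but -0.25 and 0.03 with size factors from the median of gene ratios in place of total reads. Without the minimum of 5 CPM the medians were 0.12 and 0.04. With those factors 4 members were higher, and with the 11 cells of title series 21T3 alone 12 were lower. Microglia markers, 8 of 8 read in both, summed to 6366 CPM in Trps1 gRNA cells (0.842 to 33031 per cell) and 207 CPM in no gRNA cells (0 to 968); their part was not tested.

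Dhcr7 had 43.6 CPM (41.1 to 46.2) in Trps1 gRNA cells, with reads in 9 of 30, against 397 CPM in no gRNA cells (log2 ratio -3.05, and -3.58 without the highest cells). Per cell it spanned 0 to 402 CPM in Trps1 gRNA cells, with a median of 0, against 0 to 870.4 CPM with a median of 353 in no gRNA cells. The 3 title series of Trps1 gRNA cells had 27.2, 68.2 and 29.9 CPM, and each had reads in 3 cells. All 3 series were thus below both series of no gRNA cells.

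Hmgcs1 had 302 CPM with reads in 24 of 30 Trps1 gRNA cells, against 96.1 CPM with reads in 14 of 23 no gRNA cells (log2 ratio 1.60, and 0.53 with title series 21T alone). Pmvk had 99.9 CPM with reads in 15 of 30 Trps1 gRNA cells, against 36.6 CPM with reads in 8 of 23 no gRNA cells (1.34, and 0.58 against series 2AG alone). Sqle, the squalene epoxidase and a slow step of the pathway, had 167 CPM in Trps1 gRNA cells and 68.1 CPM in no gRNA cells (1.23), though it was read in 12 of 30 Trps1 gRNA cells and 14 of 23 no gRNA cells. Its level was 45.4 CPM in series 21T, 321 CPM in 21T2 and 89.3 CPM in 21T3, so that 21T2 alone was past 2-fold higher, the ratio being -0.54 with 21T and 0.37 with 21T3. The 7 early genes summed to 522 CPM in Trps1 gRNA cells and 237 CPM in no gRNA cells; 2 of the 6 measured were higher (33.3%, near the 30.3% of all genes) and none was lower. Sterol steps varied by title series, at 1759, 2947 and 1105 CPM for series 21T, 21T2 and 21T3, against 1806 and 1611 CPM for AG and 2AG no gRNA cells.

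Msmo1 had 588 CPM in Trps1 gRNA cells and 476 CPM in no gRNA cells, within 2-fold, but its title series lay on both sides, at 370.3 CPM in 21T, 1155 CPM in 21T2 and 204 CPM in 21T3. Insig1 had 171 CPM in Trps1 gRNA cells and 228 CPM in no gRNA cells. Acaca, the first committed enzyme of fatty acid synthesis, had 41.4 CPM with reads in 11 of 30 Trps1 gRNA cells, against 4.6 CPM with reads in 7 of 23 no gRNA cells (2.27, and 0.48 with series 21T alone). The desaturase Fads2 was lower, at 80.5 CPM in Trps1 gRNA cells and 239 CPM in no gRNA cells (-1.51, and -0.76 against series 2AG alone). The elongase Elovl6 had 8.8 CPM in Trps1 gRNA cells and 34.1 CPM in no gRNA cells (-1.50), but the no gRNA reads were nearly all of series 2AG, at 62 CPM against 0.376 CPM in AG, and the ratio against AG alone was 1.36. Read as a whole, the desaturase and elongase genes summed to 857 CPM in Trps1 gRNA cells and 1417 CPM in no gRNA cells, and in Sox9 gRNA cells to 745 CPM. Both comparisons use the same no gRNA cells, so their values are set side by side and not as separate evidence.

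In batch 4 at day 21 the clearest difference was in dual gRNA cells, where the sterol enzymes summed to 340.2 CPM, against 1129 CPM in control gRNA cells. Of 32 members measured, 17 were lower (53.1%), against 36.9% of all genes, and 3 were higher, against 19.5% of all genes. The median log2 ratio was -1.04 for the members and -0.43 for all genes. Of the 17 measured enzymes of the sterol steps 11 were lower, and of the 9 fatty acid genes 2 were lower and 2 higher. Without each gene's highest cell 5 members were higher. Of the 15 control gRNA cells 1 had a sterol sum of 6457 CPM and the next 2040 CPM, with a median of 750.5 CPM. Without the highest cell of each pool the sterol enzymes summed to 289 CPM in dual gRNA cells and 864 CPM in control gRNA cells. Astrocyte markers summed to 1712 CPM in dual gRNA cells (7.75 to 9192 per cell) and 6650 CPM in control gRNA cells (18.5 to 22230), all 10 being read in both. Oligodendrocyte markers summed to 1052 CPM in dual gRNA cells (0.775 to 3375, 7 of 8 read) and 2820 CPM in control gRNA cells (0 to 44080, 8 of 8 read). Spearman's rho between the oligodendrocyte and sterol sums was 0.57 over control gRNA cells and -0.14 over dual gRNA cells. The part of these markers in the result was not tested.

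Fdft1 had 1.37 CPM (0.871 to 2.06) in dual gRNA cells, with reads in 3 of 13, against 156 CPM (150.3 to 162) in control gRNA cells, with reads in 8 of 15. Its highest cell had 8.74 CPM among dual gRNA cells and 1063 CPM among control gRNA cells, and the medians were 0 and 0.451 CPM. The log2 ratio was -4.66, and -3.49 without the highest cells. Control gRNA cells were thus split, with a few cells carrying nearly all Fdft1 reads and 66.9% of them in 1 cell. Ctsb, which overlaps it, had 1261 CPM in dual gRNA cells and 981 CPM in control gRNA cells.

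Msmo1 had 9.02 CPM (7.64 to 10.6) with reads in 3 of 13 dual gRNA cells, against 164 CPM (158 to 169.8) with reads in 10 of 15 control gRNA cells. The highest cell had 70.5 CPM in dual gRNA cells and 699.5 CPM in control gRNA cells, and the log2 ratio was -3.59. Hsd17b7, a sterol reductase, had 0.0597 CPM with reads in 1 of 13 dual gRNA cells, against 113 CPM with reads in 7 of 15 control gRNA cells (-4.55). The last ratio was -1.65 without the highest cells, because 91.0% of the control reads lay in 1 cell. Idi1, the isomerase of isopentenyl diphosphate, had 0.418 CPM with reads in 1 of 13 dual gRNA cells, against 25.9 CPM with reads in 7 of 15 control gRNA cells (-2.51).

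Pmvk had 6.33 CPM with reads in 2 of 13 dual gRNA cells, against 79.2 CPM with reads in 7 of 15 control gRNA cells (-2.89). Hmgcs1 had 46.9 CPM in dual gRNA cells and 184 CPM in control gRNA cells (-1.86). Among the exceptions, Mvd was higher, at 89.4 CPM in dual gRNA cells and 19.2 CPM in control gRNA cells, although 2 cells of each group had a read. Srebf2 had 19.5 CPM with reads in 1 of 13 dual gRNA cells, against 68.9 CPM with reads in 10 of 15 control gRNA cells (-1.59). Fasn had 27.5 CPM with reads in 4 of 13 dual gRNA cells, against 123 CPM with reads in 8 of 15 control gRNA cells (-1.98). Scd2 stayed within 2-fold at 170.4 CPM in dual gRNA cells and 333 CPM in control gRNA cells, and Insig1 was level at 31.7 and 29.9 CPM.

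Sox9 gRNA cells of batch 4, compared with the same 15 control gRNA cells, had 8 of 17 measured sterol enzymes lower (47.1%, near the 40.7% of all genes). Of 31 members measured, 12 were lower, against 40.7% of all genes, and 6 were higher, against 23.2% of all genes, so the members' shares of 38.7% and 19.4% were near those of all genes. Their median log2 ratio was -0.50, against -0.59 for all genes, and both were 0.20 with size factors, so the direction of the members as a whole rests on the scaling. None of the sterol enzymes was higher, and they summed to 572 CPM in Sox9 gRNA cells and 1129 CPM in control gRNA cells, the control pool again including the cell of 6457 CPM. The regulators and carriers, of which 1 was lower, summed to 516 CPM in Sox9 gRNA cells and 237 CPM in control gRNA cells. With the 6 cells of title series 21S alone, 3 members were higher and 21 lower. Oligodendrocyte markers summed to 255 CPM in Sox9 gRNA cells (0 to 1152 per cell, 6 of 8 read, Mog and Opalin at 0) and 2820 CPM in control gRNA cells (0 to 44080, 8 of 8 read). Microglia markers summed to 4340 CPM in Sox9 gRNA cells (2.2 to 15338) and 9355 CPM in control gRNA cells (72.8 to 17735). Neuron markers summed to 591 CPM (0 to 3541) and 1605 CPM (2.85 to 7184) in those groups. Spearman's rho of the sterol sum with neuron and astrocyte markers was -0.72 and 0.64 over Sox9 gRNA cells, and 0.11 and 0.21 over control gRNA cells. The part of these markers was not tested.

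Hsd17b7 had 0.400 CPM with reads in 2 of 16 Sox9 gRNA cells, against 113 CPM with reads in 7 of 15 control gRNA cells (log2 ratio -4.45, and -1.63 without the highest cells). Pmvk had 0.286 CPM with reads in 2 of 16 Sox9 gRNA cells, against 79.2 CPM with reads in 7 of 15 control gRNA cells (-3.99). Fads2 had 27.2 CPM with reads in 2 of 16 Sox9 gRNA cells, against 96.2 CPM with reads in 6 of 15 control gRNA cells (-1.65). These 3 genes were read in few Sox9 gRNA cells. Fdft1 had 69.3 CPM with reads in 2 of 16 Sox9 gRNA cells, against 156 CPM with reads in 8 of 15 control gRNA cells (-1.12). That ratio was 0.27 with title series 21S alone, which held both cells with reads, and -0.42 with median-of-ratios size factors. Dhcr7 had no read in 16 Sox9 gRNA cells, which allows up to 0.171 CPM, against 24.7 CPM with reads in 5 of 15 control gRNA cells. By counting error alone it was at least 144-fold lower over the pool.

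Of the 6 regulators measured 3 were higher, though not alike in the 2 title series. Insig1 had 184 CPM in Sox9 gRNA cells and 29.9 CPM in control gRNA cells (2.44), a ratio of 0.75 without the highest cells. Scap had 81.6 CPM with reads in 4 of 16 Sox9 gRNA cells, against 20 CPM with reads in 6 of 15 control gRNA cells (1.79), but all its reads were of series 21S2, and the ratio with 21S alone was -2.32. Insig2, the paralog of Insig1, had 36.1 CPM in Sox9 gRNA cells and 13 CPM in control gRNA cells (1.19, and 0.92 with 21S2 alone). Each of these rested on 9 or fewer Sox9 gRNA cells with a read. Elovl6 had 68.9 CPM with reads in 7 of 16 Sox9 gRNA cells, against 8.58 CPM with reads in 4 of 15 control gRNA cells (2.45), with 0.624 CPM in 21S and 108 CPM in 21S2 and a ratio of -1.27 with 21S alone. Elovl5 had 167 CPM in Sox9 gRNA cells and 48.7 CPM in control gRNA cells (1.68), with 16.4 CPM in 21S and 254 CPM in 21S2 and a ratio of -1.33 with 21S alone. These differences therefore came from series 21S2.

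**Figure D3:**
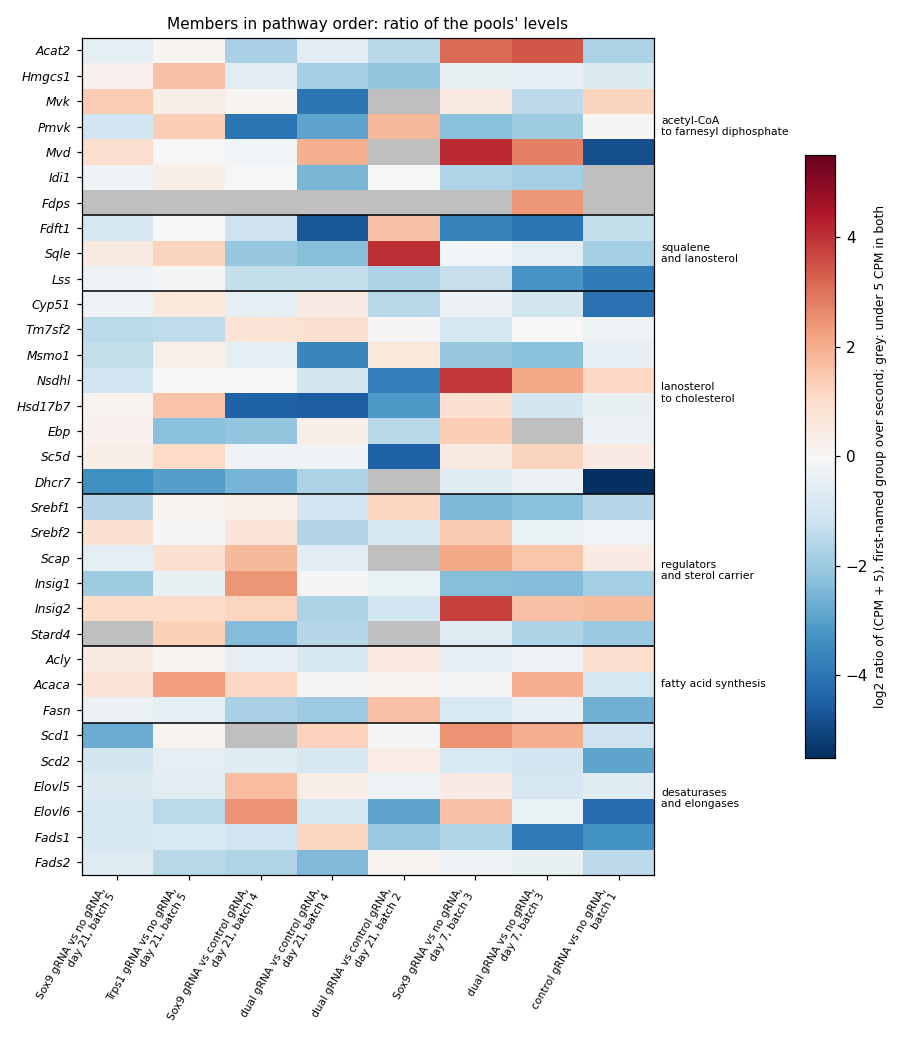
Log2 ratio of CPM + 5 (colour, red higher and blue lower in the first-named group) of the 33 members in pathway order (rows) in the 8 comparisons (columns, with the day of the cells that carry a gRNA); grey marks members under 5 CPM in both pools. Dhcr7 is blue in all 7 comparisons in which it was measured, and past 2-fold in 5 of them.

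Batch 2 repeated the dual gRNA comparison at day 21 with 8 dual gRNA and 7 control gRNA cells, and no member met the conditions for being given in full. Of 27 members measured, 11 were lower, against 41.7% of all genes, and 5 were higher, against 33.9% of all genes. Sterol enzymes summed to 1105 CPM in dual gRNA cells and 899.8 CPM in control gRNA cells, but to 546 and 712 CPM in those groups without the cell with the highest sum. Sqle made up much of the sum in dual gRNA cells, at 338 CPM with reads in 1 of 8 dual gRNA cells, against 15.3 CPM with reads in 3 of 7 control gRNA cells. Without each gene's highest cell 10 members remained measured, 3 higher and 3 lower. Msmo1 was read widely and was similar, at 635 CPM with reads in 6 of 8 dual gRNA cells, against 421 CPM with reads in 5 of 7 control gRNA cells.

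Sc5d had 0.483 CPM in dual gRNA cells and 113 CPM in control gRNA cells of batch 2, each with reads in 3 cells (log2 ratio -4.43, and -3.89 without the highest cells). Nsdhl had no read in 8 dual gRNA cells and 62.2 CPM with reads in 2 of 7 control gRNA cells. By counting error alone it was at least 429-fold lower over the pool against a limit of 0.145 CPM, though it rests on those 2 cells. Dhcr7 had no read in either group, which allows up to 0.145 CPM in dual gRNA cells and 0.201 CPM in control gRNA cells. Scd2 had 175 CPM in dual gRNA cells and 131 CPM in control gRNA cells, and Elovl5 had 83.3 and 101 CPM in those groups. The fatty acid genes together stood at 616 CPM in dual gRNA cells and 577 CPM in control gRNA cells.

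At day 7 in batch 3, members were lower relative to the rest of the genes in both gRNA groups, but the 6 no gRNA cells they share as a comparison were shallow. Of 32 members measured in Sox9 gRNA cells, 9 were higher, against 63.5% of all genes, and 8 were lower, against 13% of all genes. The median log2 ratio was -0.27 for the members and 1.43 for all genes. With size factors, 18 members were lower, and with the 8 cells of title series 7S2 alone 15 were. In dual gRNA cells 9 of 32 members were higher, against 60.8% of all genes, and 11 were lower, against 16.8% of all genes, with medians of -0.44 and 1.38. With size factors 22 were lower. The gap between the medians depended on the minimum of 5 CPM. Without it the medians were -0.21 for the members and 0.32 for all genes in Sox9 gRNA cells, and -0.43 and 0.30 in dual gRNA cells. Microglia markers summed to 8482 CPM in Sox9 gRNA cells (0.556 to 40246 per cell), 5821 CPM in dual gRNA cells (8.26 to 26433) and 215 CPM in no gRNA cells (0 to 541). Oligodendrocyte markers summed to 5430 CPM in Sox9 gRNA cells (8 of 8 read; 3.84 to 45729), 886 CPM in dual gRNA cells (6 of 8 read; 0 to 11020) and 336 CPM in no gRNA cells (4 of 8 read; 0 to 873). Astrocyte markers, all 10 read in each pool, summed to 12555 CPM in Sox9 gRNA cells (152 to 46483), 6284 CPM in dual gRNA cells (401 to 16296) and 12504 CPM in no gRNA cells (1942 to 16749). Neuron markers summed to 3003 CPM in Sox9 gRNA cells (6 of 6 read; 10 to 56164), 3590 CPM in dual gRNA cells (5 of 6 read, Gad1 at 0; 0 to 12063) and 924 CPM in no gRNA cells (6 of 6 read; 0 to 1403). The part of these markers and of the lower depth in the result was not tested.

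Fdft1 was at 82.4 CPM (79.2 to 85.7) with Sox9 gRNA and 66.5 CPM (63.1 to 70) in dual gRNA cells, against 1154 CPM (1117 to 1191) in no gRNA cells. It was read in 11 of 21 Sox9 gRNA cells, 6 of 14 dual gRNA cells and 5 of 6 no gRNA cells. The log2 ratios were -3.73 and -4.02, and -2.83 and -4.15 without the highest cells. Of the no gRNA reads 82.3% came from 1 cell, and without it that pool had 384 CPM. The level of Ctsb was 2248 CPM in the Sox9 gRNA pool and 1473 CPM in the dual gRNA pool, against 99.2 CPM in no gRNA cells. Msmo1 had 139 CPM with reads in 6 of 14 dual gRNA cells, against 701 CPM with reads in 5 of 6 no gRNA cells (-2.29), and Pmvk had 29.5 CPM with reads in 6 of 21 Sox9 gRNA cells, against 165 CPM with reads in 3 of 6 no gRNA cells (-2.30).

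The regulators split in batch 3. Insig2 had 62.6 CPM with reads in 13 of 21 Sox9 gRNA cells, against no read in 6 no gRNA cells. By counting error alone it was at least 68.8-fold higher over the pool against a limit of 0.910 CPM. That limit rests on few cells, since most of the pool's 3297698 reads came from no gRNA cells with 1540474 and 1249201 reads. Scap had 32.8 CPM with reads in 11 of 21 Sox9 gRNA cells, against 3.94 CPM with reads in 1 of 6 no gRNA cells (2.08, and 0.27 with title series 7S2 alone). Srebf2 had 94.3 CPM with reads in 15 of 21 Sox9 gRNA cells, against 32.1 CPM with reads in 3 of 6 no gRNA cells (1.42, and 0.45 with size factors). These 3 genes were higher in Sox9 gRNA cells, whereas Insig1 and Srebf1 were lower in both gRNA groups. Insig1 was at 91.6 CPM for Sox9 gRNA and 88.1 CPM for dual gRNA, against 485 CPM in no gRNA cells, and Srebf1 had 132 and 152 CPM in those gRNA groups, against 765 CPM in no gRNA cells.

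Acat2, the thiolase that joins acetyl-CoA units, had 38.2 CPM with reads in 11 of 21 Sox9 gRNA cells, against no read in the 6 no gRNA cells. By counting error alone it was at least 42-fold higher over the pool, a limit that again rests mostly on the deepest no gRNA cells. Scd1 had 57.9 CPM with reads in 13 of 21 Sox9 gRNA cells, against 6.37 CPM with reads in 2 of 6 no gRNA cells (2.47, and 0.69 with title series 7S alone). Elovl6 had 60.5 CPM with reads in 10 of 21 Sox9 gRNA cells, against 16.4 CPM with reads in 1 of 6 no gRNA cells (1.61, and 0.71 with size factors). As most genes were higher in this comparison, each of these 3 moved with the majority. Fads1, a desaturase of long fatty acids, did not: its level was 165 CPM in the Sox9 gRNA pool and 31.7 CPM in the dual gRNA pool, against 531 CPM in no gRNA cells.

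In batch 1, cells with a control gRNA, which targets neither factor, had lower members than cells with no gRNA, above all in the fatty acid genes. Of 31 members measured, 16 were lower (51.6%), against 30.1% of all genes, and 3 were higher, against 37.2% of all genes. The median log2 ratio was -1.13 for the members and 0.26 for all genes. Fatty acid genes summed to 423 CPM in control gRNA cells and 1404 CPM in no gRNA cells, with 6 of 9 lower and none higher. The count higher was 0 without the highest cells and 1 with size factors. Microglia markers summed to 8557 CPM in control gRNA cells (7.04 to 27718 per cell) and 276 CPM in no gRNA cells (0 to 2995). Astrocyte markers summed to 8556 CPM in control gRNA cells (866 to 16644) and 13878 CPM in no gRNA cells (875 to 45427), and neuron markers to 2491 CPM in control gRNA cells (34.1 to 9506) and 1312 CPM in no gRNA cells (1.02 to 5852), all of both lists being read in both pools. The part of these markers in the result was not tested.

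Dhcr7 had 0.0905 CPM (0.00229 to 0.504) in control gRNA cells, from a read in 1 of 10, against 223 CPM (217 to 228) in no gRNA cells, with reads in 17 of 31. Per cell the highest value was 0.969 CPM in control gRNA cells and 1680 CPM in no gRNA cells, with medians of 0 and 0.933 CPM. Control gRNA cells were thus at or near 0 throughout, and no gRNA cells were divided between none and far higher values. The log2 ratio of -5.48 was the largest in size of any member in the 8 comparisons. Mvd had 0.0905 CPM with a read in 1 of 10 control gRNA cells, against 139 CPM with reads in 15 of 31 no gRNA cells (-4.82).

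Scd2 had 42.8 CPM (39.0 to 46.8) with reads in 6 of 10 control gRNA cells, against 355 CPM (348 to 361) with reads in 29 of 31 no gRNA cells (-2.91). Fasn had 31.8 CPM with reads in 5 of 10 control gRNA cells, against 225 CPM with reads in 23 of 31 no gRNA cells (-2.64). Fads1 had 21.8 CPM with reads in 3 of 10 control gRNA cells, against 259 CPM with reads in 17 of 31 no gRNA cells (-3.30). The highest control gRNA cell reached 195 CPM of Scd2 and 106 CPM of Fads1, within the range of the no gRNA cells. Fdft1 had 43.3 CPM with reads in 2 of 10 control gRNA cells, against 115 CPM with reads in 17 of 31 no gRNA cells (-1.32). A single cell held 99.8% of the control reads, and the ratio was 0.02 when each cell weighed the same. Acly, the lyase that supplies acetyl-CoA, had 142 CPM in control gRNA cells and 71.7 CPM in no gRNA cells. The 4 dual gRNA cells of the batch summed to 3558 CPM over all members, against 1520 CPM in control gRNA cells and 3537 CPM in no gRNA cells, but to 1400 CPM without the highest of the 4.

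**Figure D4:**
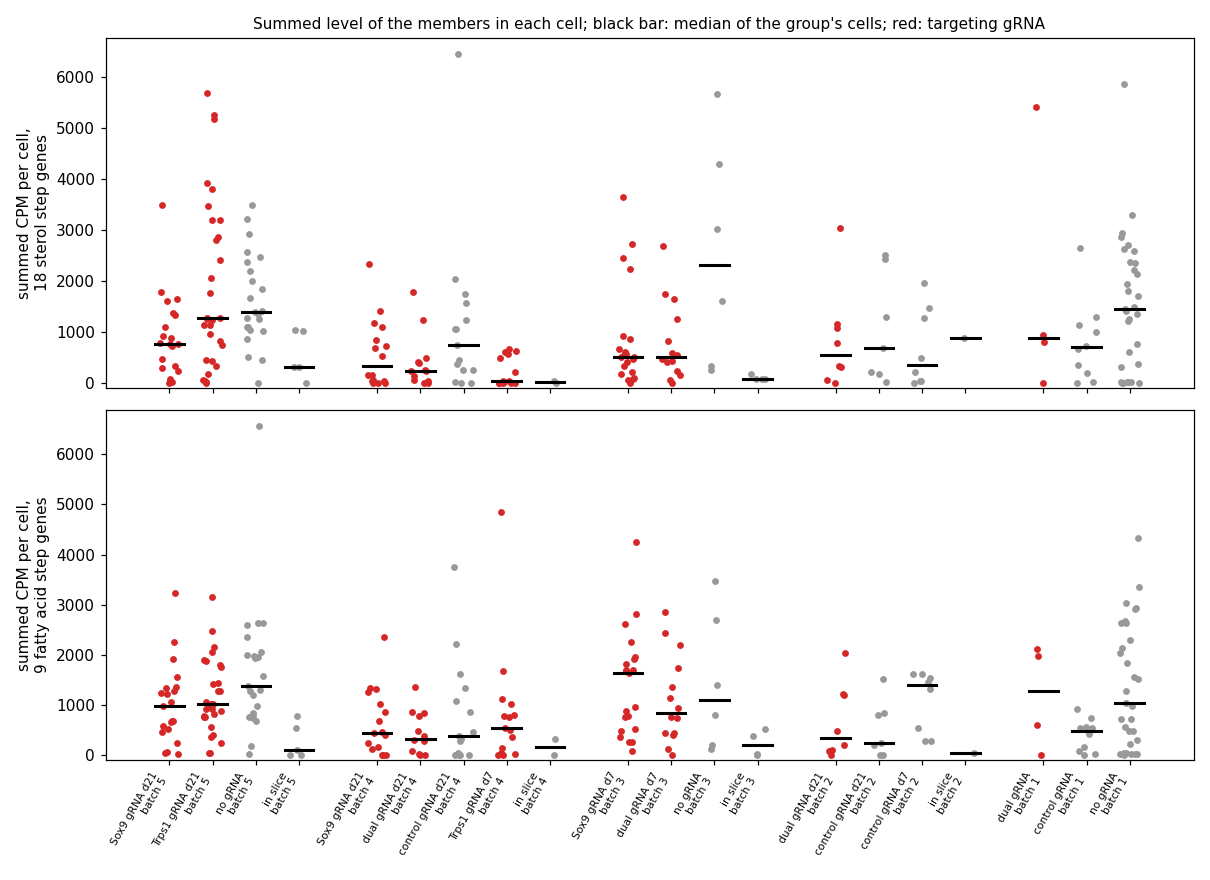
Summed CPM per cell (y axes) of the 18 sterol enzymes (upper panel) and the 9 fatty acid genes (lower panel) in each group and batch (x axis); each point is a cell, black bars are medians, and red marks cells with a gRNA against Sox9 or Trps1 or both. The median sterol sum was 240.1 CPM in dual gRNA cells of batch 4 and 750.5 CPM in control gRNA cells of batch 4, and 700.3 CPM in control gRNA cells and 1450 CPM in no gRNA cells of batch 1.

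Cells of 1 pool varied widely. Among the 21 Sox9 gRNA cells of batch 5 the sterol sum lay between 1.04 and 3497 CPM with a median of 770, and among the 23 no gRNA cells between 3.85 and 3484 CPM with a median of 1383. The ranges were nearly the same while the medians differed. The median cell had reads of 11 members among Sox9 gRNA cells and 14.5 among Trps1 gRNA cells, against 18 among no gRNA cells. Across cells of a group, Spearman's rho between the number of members read and the number of genes read was 0.59 to 0.87 in the 11 groups of 10 or more cells, so these counts follow how many genes a library captured. Between the sterol and the fatty acid sums it was 0.48 over 21 Sox9 gRNA cells, 0.56 over 30 Trps1 gRNA cells and 0.78 over 23 no gRNA cells of batch 5, values that share library and depth and are given as a description.

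Over the 8 comparisons, which share some of their cells, some members were past 2-fold only or mostly on 1 side. Such tallies were not made over all genes, so they are not read as particular to the members. Lss, which closes the sterol rings, was lower in 6 and higher in none, but was read in few cells: in batch 1 it had 1.27 CPM with reads in 1 of 10 control gRNA cells, against 88.9 CPM with reads in 7 of 31 no gRNA cells. Without the highest cells the Lss ratio was -0.28 in both Sox9 and dual gRNA cells of batch 4. In dual gRNA cells of batch 2 it was -0.02, and in the rest it stayed past 2-fold. Dhcr7 was lower in 5 of the 7 in which it was measured and higher in none. Fdft1 was lower in 5 and higher in 1, Srebf1 and Fads1 likewise, and Pmvk was lower in 5 and higher in 2. Insig2 went the other way, higher in 5 and lower in 2. Without the highest cells, its higher ratios became 0.01 in dual gRNA cells of batch 3 and -1.05 in control gRNA cells of batch 1. Its lower ratios became -0.80 and -0.43 in dual gRNA cells of batches 4 and 2, and the rest stayed past 2-fold. Acly was past 2-fold in none of the 8 and Scd2 was lower in 2, both being among the more widely read members.

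Across the 16 pools of cells, Dhcr7 was highest in the no gRNA pools of batches 5 and 1, at 397 and 223 CPM, and in the 4 dual gRNA cells of batch 1, at 193 CPM. It lay between 24.7 and 71.9 CPM in 7 further pools, including 43.6 CPM in Trps1 gRNA cells and 39.1 CPM in control gRNA cells of day 7 in batch 2. It was at 4 CPM or less in the other 6 pools, 4 of them with no read. Most neighbours in this order belong to different batches and are not compared; within batch 3 the values of 42.9 CPM in Sox9 gRNA and 56.1 CPM in dual gRNA cells lay within 2-fold of the 71.9 CPM in no gRNA cells. In the in-slice controls of batch 5 Dhcr7 had 7.43 CPM with reads in 1 of 5, and Msmo1 had 116 CPM with reads in 4 of 5, so Msmo1 has the higher background of the pair.

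**Figure D5:**
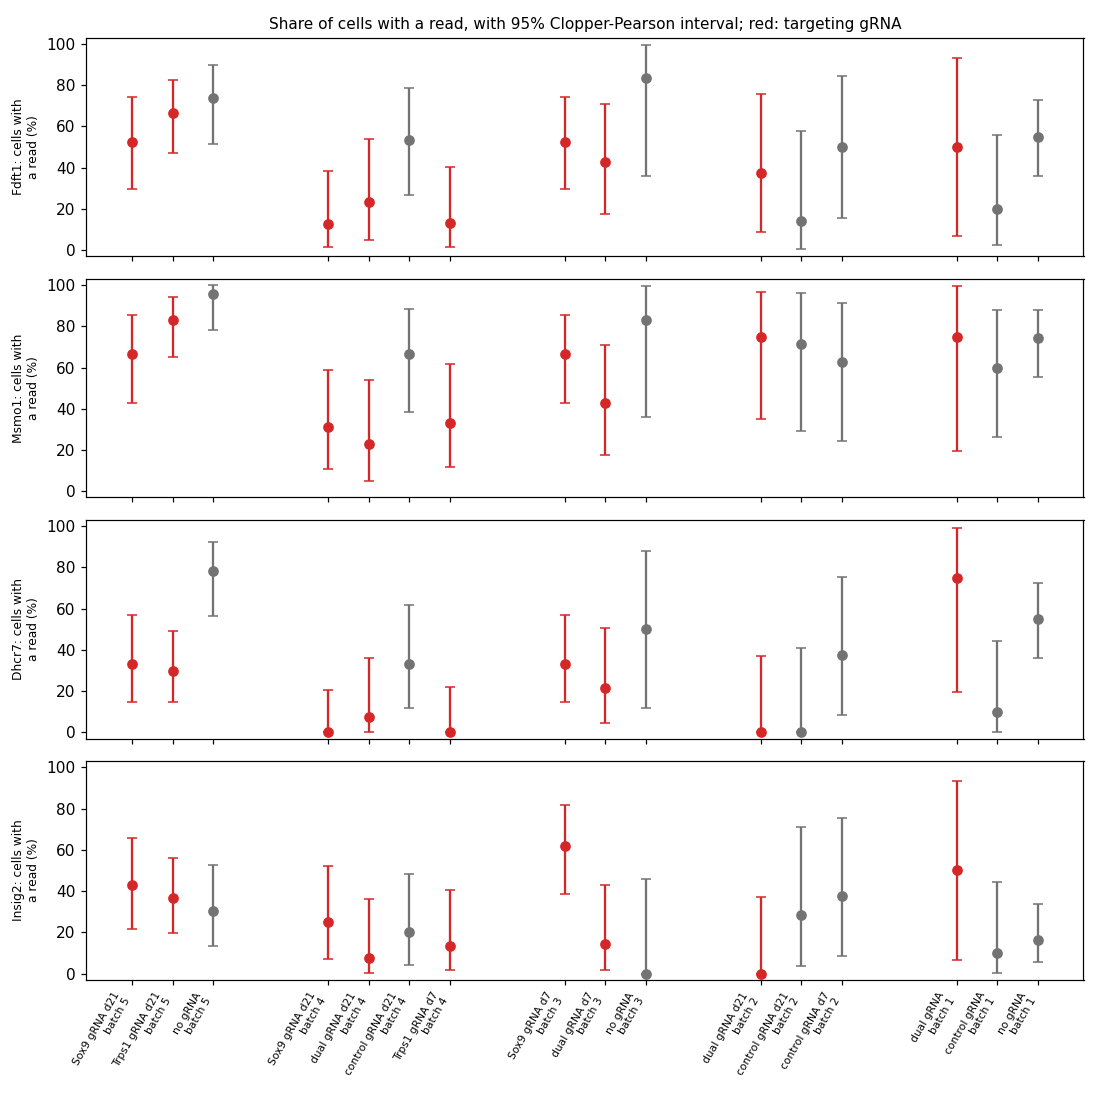
Share of cells with a read (y axes, percent, with 95% Clopper-Pearson intervals for counting error) of Fdft1, Msmo1, Dhcr7 and Insig2 in each group and batch (x axis); red marks cells with a gRNA against Sox9 or Trps1 or both. Dhcr7 was read in 33.3% of Sox9 gRNA, 30% of Trps1 gRNA and 78.3% of no gRNA cells of batch 5.

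Trps1 gRNA cells of day 7 in batch 4 have no group of their day in that batch and are given by level only. Their sterol enzymes summed to 246 CPM and their fatty acid genes to 733 CPM over 15 cells. Dhcr7 and Lss had no read there, Insig1 had 8.33 CPM with reads in 3 cells and Msmo1 51.5 CPM with reads in 5 cells. Scd2 had 325 CPM with reads in 11 cells. In batch 2, the 8 control gRNA cells of day 7 had 673 CPM of sterol enzymes and 1059 CPM of fatty acid genes.

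A further 24 genes of these pathways that are not members were listed: cofactors, SREBP proteases, liver X receptors and enzymes of fatty acid elongation. In Sox9 gRNA cells of batch 5, 2 of 24 measured were higher (8.33%, against 24.3% of all genes) and 6 lower (25%, against 20.5%). Por, the reductase that passes electrons to the sterol enzymes, had 67.5 CPM with reads in 8 of 21 Sox9 gRNA cells, against 369.9 CPM with reads in 17 of 23 no gRNA cells (-2.37), and the elongase Elovl2 had 17.6 CPM with reads in 3 of 21 Sox9 gRNA cells, against 91.7 CPM with reads in 14 of 23 no gRNA cells (-2.10). In Trps1 gRNA cells of that batch 5 of 23 were higher (21.7%, against 30.3% of all genes) and 4 lower (17.4%, against 14.3%). In batch 4, 5 of 21 were higher (23.8%, against 23.2% of all genes) and 7 lower (33.3%, against 40.7%) in Sox9 gRNA cells. In dual gRNA cells 4 of 22 were higher (18.2%, against 19.5%) and 6 lower (27.3%, against 36.9%). In dual gRNA cells of batch 2, 7 of 15 were higher (46.7%, against 33.9% of all genes) and 3 lower (20%, against 41.7%). In batch 3, 17 of 22 were higher (77.3%, against 63.5% of all genes) and 1 lower (4.55%, against 13%) in Sox9 gRNA cells. The dual gRNA cells had 13 of 19 higher (68.4%, against 60.8%) and 2 lower (10.5%, against 16.8%). In control gRNA cells of batch 1, 7 of 21 were higher (33.3%, against 37.2% of all genes) and 7 lower (33.3%, against 30.1%).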

How the data were processed

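Smart-seq2 libraries of single cells were deposited by the authors as read counts by gene, not normalized, in 1 table for each of 5 batches. Per the submitters' processing notes the tools were STAR 2.6.0a and RSEM 1.3.0 and the builds mm10 and GRCm38; their roles are not stated there. Of 289 labelled samples 254 had a column, and 35 of batch 4 were not analysed here. Rows that name no gene held 75.6% of counts in batch 1, 22.3% in batch 2 and under 1% in the others, and were left out. Python 3.11.15, pandas 2.3.3, NumPy 2.4.6 and SciPy 1.17.1 were used. Counts were summed per pool. Genes under 5 CPM in both pools were not measured. Members were given in full where the higher pool had at least 20 CPM and a read in 40% of its cells, with shares at least 20 percentage points apart and a 2-fold ratio that held without the highest cells. Ratios were tested on simulated data. Alternatives were the pseudocount, the filter, size factors, equal cell weights, leaving out cells, and title series alone; their use on members past 2-fold but not given in full was added after seeing the data. Exons and coordinates are GENCODE, GRCm38. The members and lists were chosen with earlier results of these data known.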

Additional observations from a re-analysis of the deposited data

Results flagged for a closer look

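In 3 groups the sterol sum of 1 cell lay far from the others, among 16 sets of values examined. All sets came from groups of 4 to 10 cells. A rate of about 1 in 20 such sets by chance assumes normally distributed values. Sums of single cells were skewed, so the 3 groups cannot be set against that rate. The highest of 8 dual gRNA cells of day 21 in batch 2 had 3033 CPM, and the next had 1152. The highest of 10 control gRNA cells in batch 1 had 2645 CPM, and the next had 1292. The highest of 4 in-slice controls in batch 3 had 163 CPM, and the next had 79. Larger groups were not examined in this way. Among them, the 15 control gRNA cells of batch 4, which both batch 4 comparisons use, had 1 cell at 6457 CPM and the next at 2040 CPM.

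For 6 members the dual gRNA comparison at day 21 was past 2-fold in opposite directions in batches 4 and 2. The log2 ratio of dual gRNA over control gRNA cells was -2.89 in batch 4 and 1.78 in batch 2 for Pmvk, -4.66 and 1.61 for Fdft1, and -2.35 and 4.08 for Sqle. It was -1.05 and 1.18 for Srebf1, -1.98 and 1.59 for Fasn, and 1.19 and -2.06 for Fads1. Of all genes, 19.5% were higher and 36.9% lower in batch 4, and 33.9% and 41.7% in batch 2. The share of all genes past 2-fold in opposite directions was not counted, so the 6 are not read as particular to the members. The difference between the batches was not tested. The batch 2 ratios of Pmvk, Fdft1, Sqle, Srebf1 and Fasn were 0.35, 0.57, -0.04, 0.02 and -0.03 without the highest cells.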

How the results depend on the processing

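No paired analysis was possible because the replicate numbers follow accession order only and no comparison rests on a test. Of 122 alternative counts of members higher or lower, 105 stayed within 1.5 times the count reported and 17 moved, in these comparisons. Dropping the filter could not change a count, because a 2-fold ratio with 5 CPM added already needs 5 CPM in the higher pool. Leaving out cells under 100000 reads changed no pool outside batch 3. For Sox9 gRNA against no gRNA cells of batch 5 the count higher (1) was 3 with a pseudocount of 1 CPM, 8 or 2 against series AG or 2AG alone, and 0 leaving out the highest cells, and the count lower (8) was 13 against AG alone. For Trps1 gRNA against no gRNA cells the count higher (8) was 4 with size factors, and the count lower (5) was 12 with series 21T3 alone. For Sox9 gRNA against control gRNA cells of batch 4 the counts (6 higher, 12 lower) were 3 and 21 with series 21S alone. For dual gRNA against control gRNA cells the count higher was 5 in place of 3 in batch 4 without the highest cells, and in batch 2 the counts (5 higher, 11 lower) were 3 and 3. For batch 3 the counts lower (8 and 11) were 18 in Sox9 gRNA and 22 in dual gRNA cells with size factors, and 15 in Sox9 gRNA cells with series 7S2 alone. For control gRNA against no gRNA cells of batch 1 the count higher (3) was 1 with size factors and 0 without the highest cells. The cause was not tested. Among the 34 pairs of a comparison and a member given in full, 241 of 249 settings kept direction and 2-fold size, 6 kept direction only, and 2 reversed: Fdft1 in Sox9 gRNA cells of batch 4 (0.27 with series 21S alone) and Fdft1 in control gRNA cells of batch 1 (0.02 with equal cell weights). Holding without the highest cells was a condition for these 34, so that setting could not fail. For any pair, dropping the filter leaves the ratio unchanged and a pseudocount of 1 CPM enlarges it, so neither could fail. The shares kept are therefore not a measure of robustness. The other 98 pairs past 2-fold were an extension chosen after seeing the data: of 736 settings 638 kept direction and size, 72 kept direction only and 26 reversed, in 25 pairs. Those counted as reversed include ratios that fell to 0 and have no direction. Mvd with series 7ST, for example, had no read in either pool. In batch 5 the reversed log2 ratios were 1.41 for Pmvk in Sox9 gRNA cells against AG alone and, in Trps1 gRNA cells, 1.36 for Elovl6 against AG, -0.54 for Sqle with 21T, -0.07 for Sc5d with 21T2 and -0.05 for Hsd17b7 with 21T3. In Sox9 gRNA cells of batch 4 they were -2.32 for Scap, -1.41 for Acaca, -1.33 for Elovl5 and -1.27 for Elovl6 with 21S, and -1.02 for Acaca without the highest cells. In dual gRNA cells without the highest cells they were 0.03 for Srebf1 in batch 4, -0.04 for Sqle, 0.02 for Cyp51, 0.00 for Hsd17b7, -0.03 for Fasn and 0.00 for Elovl6 in batch 2, and 0.00 for Mvk and 0.01 for Stard4 in batch 3. In dual gRNA cells of batch 3 they were 0.00 for Mvd and -0.27 for Sc5d with 7ST, -0.79 for Scap, 0.00 for Insig2 and -1.16 for Scd1 with 7ST2, and -0.19 for Acaca with equal cell weights. In control gRNA cells of batch 1 they were -0.02 for Mvk and -1.05 for Insig2 without the highest cells.

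Size factors moved the median log2 ratio of all genes to 0.03 for Trps1 gRNA cells of batch 5, in place of 0.41, to 0.94 and 0.86 for Sox9 and dual gRNA cells of batch 3, in place of 1.43 and 1.38, and to -0.31 for control gRNA cells of batch 1, in place of 0.26. The members' medians there were -0.25, -1.26, -1.37 and -1.37. In batch 4 they moved it to 0.20 for Sox9 gRNA cells, in place of -0.59, and to -0.08 for dual gRNA cells, in place of -0.43, with members' medians of 0.20 and -0.80. In batch 2 it was 0.04 in place of -0.37, with a members' median of 0.21. Without the minimum of 5 CPM the medians of all genes lay between -0.10 and 0.32 and those of the members between -1.03 and 0.12. With pools at 0 set to their limit of 3 counts, the members' medians lay between -1.13 and 0.14 and none moved by more than 0.01 from those reported. Those limits were at most 0.91 CPM and 5 CPM is added to both pools, so the medians had little room to move. Depth limits single cells most in the no gRNA group of batch 3.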
